A study of Homo sapiens with 6 samples.

Results

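The genes described here encode epithelial surface glycoproteins and a set of membrane serine proteases with their inhibitors: EPCAM, MUC1, CEACAM1, CEACAM5, CEACAM6, ST14, PRSS8, SPINT1 and SPINT2. These 9 genes were chosen by symbol, and all 9 were among the 21293 genes of the table. A minimum mean of 10 normalized counts was passed by 14395 genes and by 8 of the 9; PRSS8 did not pass, and CEACAM5 passed only through its level in one group. RNA sequencing was carried out on H2087-LCC cells, a human lung adenocarcinoma population selected in mice for its ability to persist as dormant metastases and derived from the line H2087. The cells were incubated with SB505124, an inhibitor of the TGFβ receptor kinase, for 3 days (SB, the reference group), with TGFβ for 3 days or with TGFβ for 7 days. There were 2 libraries in each of the 3 groups and 6 in all. No SB library was made at 7 days, so that TGFβ and time in culture cannot be told apart in the comparison of TGFβ 7 days with SB. Longer TGFβ and longer time in culture cannot be told apart in the comparison of TGFβ 7 days with 3 days either. The study describes such libraries as technical replicates, and the labels do not say that they came from separate cultures, so the p-values measure only the spread between these libraries.

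EPCAM is an adhesion molecule of simple epithelia, MUC1 a heavily glycosylated transmembrane mucin of the apical surface, and the CEACAM proteins are immunoglobulin-like adhesion molecules, of which CEACAM5 and CEACAM6 are anchored to the membrane by a lipid and CEACAM1 by a transmembrane stretch. ST14 encodes matriptase, a transmembrane serine protease that works together with prostasin, the product of PRSS8, at the surface of epithelial cells. SPINT1 and SPINT2 encode HAI-1 and HAI-2, Kunitz-type inhibitors that sit in the same membrane and restrain both proteases.

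The libraries held 34306283 to 36340734 normalized counts, from an estimated 32000000 to 40000000 assigned reads. SMAD7, a direct target of TGFβ signaling, checked the treatment: it was at 112 and 79 normalized counts in SB and at 747 to 916 with TGFβ, with log2 differences from SB of 3.17 (3 days) and 3.07 (7 days; adjusted p = 8.54e-08 and 4.76e-08, moderated test of limma). The epithelial keratin KRT8 was at 33341 to 42692 normalized counts in every library. Of 6 leukocyte markers none passed the minimum, and their summed level was 8 to 22. The 3 endothelial markers summed to 56 to 78, most of it PECAM1, and the 3 fibroblast markers to 8 to 16, with LUM at 0 in all libraries. The SB libraries stood further apart than the others: 397 genes (2.76%) differed more than 2-fold between them, against 118 (0.820%) at TGFβ 3 days and 126 (0.875%) at 7 days. In SB library 2 against library 1, the surfactant gene SFTPB was higher (8273 against 1104 normalized counts). For the genes named below, values without either SB library are given where a call was lost or the value moved by more than 1.5 times.

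The upstream sequences of 3 surface glycoprotein genes that fell are shown because CEACAM5 and CEACAM6 lie next to each other and fell together, and because MUC1 fell less. They come from RefSeq on build GRCh38.p14, which held promoter windows for 5 of the 9 genes (MUC1, CEACAM1, CEACAM5, CEACAM6 and SPINT1). Each run covers the 250 bases before the annotated start, 5′ to 3′ on the strand of the gene, and capitals mark CACCTG, the form of the E-box bound by EMT transcription factors of the ZEB and SNAI families. The windows are chr1:155192916-155193165 on the minus strand for MUC1, and chr19:41708376-41708625 and chr19:41755280-41755529 on the plus strand for CEACAM5 and CEACAM6.
MUC1: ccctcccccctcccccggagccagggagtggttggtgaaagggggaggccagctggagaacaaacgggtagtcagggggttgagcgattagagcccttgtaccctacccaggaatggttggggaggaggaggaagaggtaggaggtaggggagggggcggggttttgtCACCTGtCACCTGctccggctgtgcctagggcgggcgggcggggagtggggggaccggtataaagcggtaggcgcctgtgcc
CEACAM5: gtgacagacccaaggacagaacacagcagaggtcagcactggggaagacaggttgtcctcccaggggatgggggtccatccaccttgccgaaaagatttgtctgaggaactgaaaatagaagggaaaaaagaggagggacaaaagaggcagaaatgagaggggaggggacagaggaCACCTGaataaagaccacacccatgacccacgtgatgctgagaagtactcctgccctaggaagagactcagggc
CEACAM6: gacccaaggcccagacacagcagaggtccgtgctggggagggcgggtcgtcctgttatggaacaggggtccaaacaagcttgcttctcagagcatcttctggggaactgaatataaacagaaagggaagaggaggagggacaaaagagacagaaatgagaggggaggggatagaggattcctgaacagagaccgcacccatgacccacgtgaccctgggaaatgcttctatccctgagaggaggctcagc
CACCTG, searched on both strands (CAGGTG on the other), began 82 and 75 bases before the start in MUC1 and 74 bases before it in CEACAM5. The CEACAM6 and CEACAM1 windows held none, and 1 of the 2 SPINT1 windows held it on the opposite strand. The letters occur in 6143 of 35116 promoter windows of the same length (17.5%). Aligned to each other, the CEACAM5 and CEACAM6 windows were identical at 194 of 240 aligned bases (80.8%, with 20 gap positions). Other pairs came close: the CEACAM1 window matched CEACAM5 at 77.1% and CEACAM6 at 76.3%, with 38 and 28 gap positions. MUC1 and SPINT1, of different families, matched at 79.1% with 98 gap positions. Percent identity in these alignments thus does not tell windows of 1 family from windows of different families, and no conclusion is drawn from it. The E-box letters of CEACAM5 are not present in CEACAM6. These matches describe the letters only, and binding was not measured.

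EPCAM fell in steps. EPCAM (GRCh37, chr2:47572297-47614740, plus strand) was at 10180 and 9106 normalized counts in SB, 6610 and 5994 at TGFβ 3 days and 2988 and 3277 at TGFβ 7 days. Both libraries of each group lay below both libraries of the group before, with no overlap. The means were 9643 ± 759, 6302 ± 436 and 3132.5 ± 204 (SD, n = 2), 1.53-fold lower at 3 days and 3.08-fold lower at 7 days than in SB. On the scale of log2(normalized count + 1), the change was -0.61 ± 0.09 (SE) at 3 days (95% interval -0.82 to -0.41, adjusted p = 0.000411) and -1.62 at 7 days (-1.83 to -1.42, adjusted p = 6.24e-08). The further fall from 3 to 7 days was -1.01 (-1.21 to -0.80, adjusted p = 2.82e-05). At 7 days EPCAM was still among the most abundant of the 9 transcripts. In bulk RNA, fewer cells that carry a transcript and less RNA in each cell cannot be told apart.

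MUC1 fell at both times, with its SB libraries far apart. MUC1 (chr1:155158300-155162707, minus strand) was at 448 and 1289 normalized counts in SB, 169 and 177 at TGFβ 3 days, and 330 and 330 at TGFβ 7 days. Both TGFβ groups lay below both SB libraries, with TGFβ 3 days the lowest. The change against SB was -2.13 ± 0.34 (SE) on the log2 scale at 3 days (95% interval -2.88 to -1.38, adjusted p = 0.000600) and -1.20 at 7 days (-1.95 to -0.46, adjusted p = 0.0105). The value at 7 days depended on the SB library used: it was -1.96 without SB library 1 (adjusted p = 8.72e-06) and -0.44 without SB library 2 (adjusted p = 0.0355), and the value at 3 days was -2.89 and -1.37. Between the SB libraries MUC1 differed by 1.52 on the log2 scale, a larger gap than in all but 0.806% of the genes tested. From 3 to 7 days MUC1 was higher by 0.93 (0.18 to 1.67), which missed the threshold (adjusted p = 0.0555), although the 2 libraries of each TGFβ group differed by 0.07 or less. A fit of the 4 TGFβ libraries alone, without the SB libraries, gave an adjusted p of 0.000590 for the same difference. With no minimum it was 0.247, and 7 of the 11 settings other than a left-out library did not call it.

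CEACAM6 and CEACAM5, neighbors on chromosome 19 with 20531 bases between them, showed the deepest falls. CEACAM6 (chr19:42254885-42276116, plus strand) was at 6573 and 9563 normalized counts in SB, 270 and 262 at TGFβ 3 days, and 127 and 163 at TGFβ 7 days. The 3 groups did not overlap, and the SB libraries stood far above the rest. The mean of 8068 ± 2114 (SD, n = 2) in SB was 30.3 times that at 3 days (266 ± 5.66) and 55.6 times that at 7 days (145 ± 25.5). The change was -4.89 ± 0.17 (SE) on the log2 scale at 3 days (95% interval -5.27 to -4.51, adjusted p = 2.90e-09) and -5.77 at 7 days (-6.15 to -5.40, adjusted p = 2.82e-10). A smaller fall followed between 3 and 7 days, by 0.88 on the log2 scale (-1.26 to -0.50, adjusted p = 0.00287).

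CEACAM5, which encodes carcinoembryonic antigen (chr19:42212504-42234353, plus strand), was at 59 and 254 normalized counts in SB, 0 and 0 at TGFβ 3 days, and 1 and 1 at TGFβ 7 days. The gene was thus almost absent from all 4 TGFβ libraries, while the SB libraries themselves stood 2.09 apart on the log2 scale, a gap exceeded by 0.264% of the genes tested. Against a floor of 3 normalized counts per library, the mean at 3 days was at least 52.2-fold lower than the SB mean of 156.5 ± 138 (SD, n = 2). At 7 days the SB mean was 156.5 times the TGFβ mean, with a counting interval of 43.0 to 1298 that takes 1 normalized count as 1 read and covers counting error only. Both values depend on the SB library: library 1 alone was at least 19.7-fold above the 3-day floor and 59 times the 7-day mean, and library 2 alone at least 84.7-fold and 254 times. CEACAM5 passed the minimum only through SB, so that its calls against SB (adjusted p = 9.53e-06 and 1.50e-05) are fixed in part by that minimum and are a description only. The fitted changes of -6.95 and -5.95 depend on the pseudocount and are no bounds. Whether 0 and 1 differ was not detectable at this depth (adjusted p = 0.265).

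CEACAM1, the transmembrane member of the family (chr19:43011456-43065386, minus strand), did not follow its relatives. CEACAM1 was at 41 and 43 normalized counts in SB, 26 and 37 at TGFβ 3 days, and 44 and 48 at TGFβ 7 days. The TGFβ 3-day libraries were the lowest and the 7-day libraries the highest, within a narrow range of low values. The change was -0.42 ± 0.27 (SE) on the log2 scale at 3 days (95% interval -1.02 to 0.17, adjusted p = 0.275) and 0.13 at 7 days (-0.47 to 0.73, adjusted p = 0.714), and 0.55 from 3 to 7 days (-0.05 to 1.15, adjusted p = 0.143). These intervals do not reach the falls of CEACAM5 or CEACAM6, although they hold changes of up to about 2-fold. Of the 50-base windows in the transcripts, 4.77% in CEACAM1, 6.40% in CEACAM5 and 8.25% in CEACAM6 also occur in transcripts of another gene. Part of their reads could thus have been dropped or assigned elsewhere. For CEACAM5 (3.71%) and CEACAM6 (3.97%) the gene sharing most windows was ENSG00000267881, which overlaps both on the same strand. For CEACAM1 it was the family member CEACAM3 (2.32%).

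**Figure D1:**
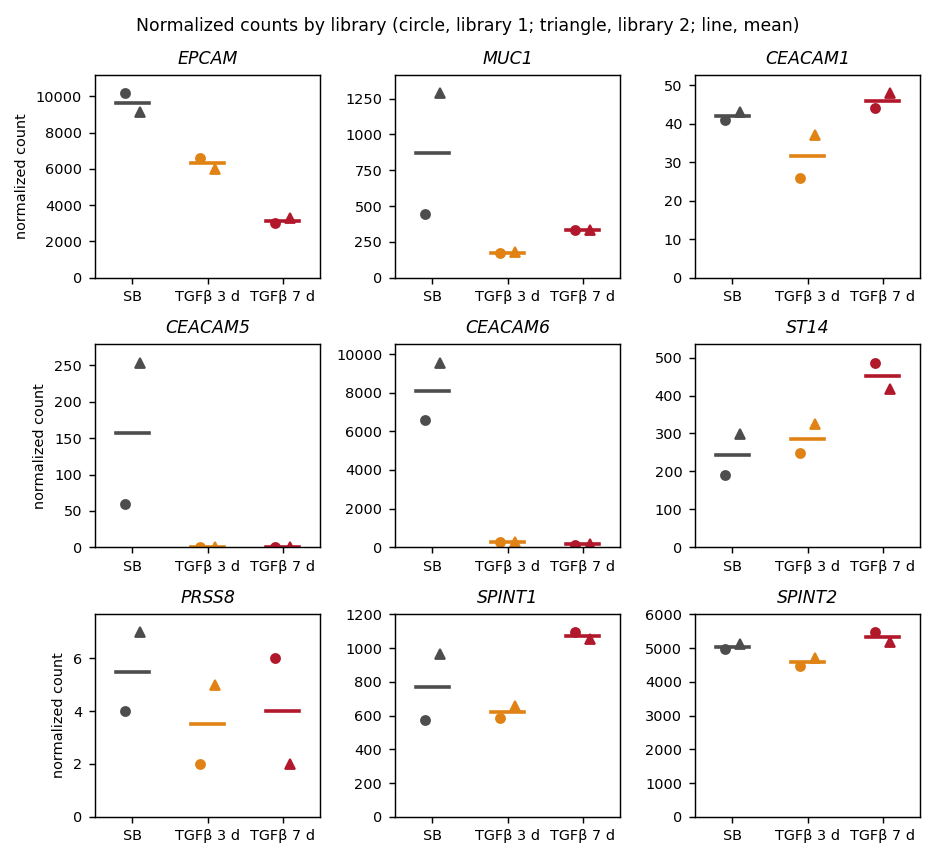
Normalized counts (vertical axis, linear, starting at 0 in each panel) of the 9 genes in SB, TGFβ 3 days and TGFβ 7 days, with a circle for library 1, a triangle for library 2 and a line at the group mean. EPCAM steps down from 9643 to 3132.5, CEACAM6 drops from 8068 to 145, and ST14 and SPINT1 are highest at 7 days, while the SB libraries of MUC1 (448 and 1289) and CEACAM5 (59 and 254) lie far apart.

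The protease gene ST14 rose late. ST14 (chr11:130029677-130080257, plus strand) was at 191 and 298 normalized counts in SB, 249 and 324 at TGFβ 3 days, and 487 and 418 at TGFβ 7 days. The SB and TGFβ 3-day libraries interleaved, whereas both 7-day libraries lay above all others. The mean at 7 days, 452.5 ± 48.8 (SD, n = 2), was 1.85 times that in SB (244.5 ± 75.7) and 1.58 times that at 3 days (286.5 ± 53.0). The difference from SB was 0.92 ± 0.21 (SE) on the log2 scale (95% interval 0.46 to 1.37, adjusted p = 0.00283). At 3 days it was 0.25 (-0.20 to 0.71, adjusted p = 0.402), and from 3 to 7 days 0.67 (0.21 to 1.12, adjusted p = 0.0290). The value against SB at 7 days was 0.60 without SB library 1 and 1.24 without SB library 2 and passed the test in both (adjusted p = 0.0287 and 0.000687). That from 3 to 7 days lost its call without TGFβ 3-day library 1 (0.48, adjusted p = 0.179) or without either 7-day library (adjusted p = 0.169 and 0.0681).

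PRSS8, which encodes prostasin (chr16:31142754-31147048, minus strand), was barely detected. It was at 4 and 7 normalized counts in SB, 2 and 5 at TGFβ 3 days, and 6 and 2 at TGFβ 7 days, with the groups overlapping. Its mean of 4.33 was under the minimum, so it was not tested with the rest. Fitted with no minimum, the differences were -0.58 (95% interval -2.07 to 0.92) at 3 days and -0.46 (-1.96 to 1.03) at 7 days on the log2 scale, so that no difference was detectable at this depth, and falls of more than 2-fold lie inside the intervals. Of its 50-base windows, 14.8% also occur in a transcript of a gene on the opposite strand, and the library kit does not mark strand.

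Of the inhibitor genes, SPINT1 rose late and SPINT2 changed little. SPINT1 (chr15:41136216-41150405, plus strand) was at 572 and 966 normalized counts in SB, 584 and 654 at TGFβ 3 days, and 1095 and 1051 at TGFβ 7 days. The 3-day values fell inside the range of SB, and the 7-day values lay above both groups. From 3 to 7 days SPINT1 rose by 0.79 ± 0.19 (SE) on the log2 scale (95% interval 0.38 to 1.21, adjusted p = 0.00866), a 1.73-fold higher mean. Against SB it was 0.53 higher at 7 days (0.11 to 0.95, adjusted p = 0.0346) and -0.27 at 3 days (-0.69 to 0.15, adjusted p = 0.328). The call against SB at 7 days rested on SB library 1: without it the difference was 0.15 (adjusted p = 0.339), and without SB library 2 it was 0.91 (adjusted p = 0.000363). It was also lost without either 7-day library (adjusted p = 0.120 and 0.0907). At 3 days the value was -0.64 without SB library 1 (adjusted p = 0.00482) and 0.11 without SB library 2. No 50-base window of the canonical SPINT1 transcript occurs in a transcript of another gene, the antisense gene SPINT1-AS1 included.

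SPINT2 (chr19:38734675-38783255, plus strand) was at 4971 and 5118 normalized counts in SB, 4478 and 4709 at TGFβ 3 days, and 5477 and 5174 at TGFβ 7 days. The 3 groups did not overlap, but they lay within a narrow band, with 3 days lowest and 7 days highest. The changes against SB were -0.14 ± 0.08 (SE) on the log2 scale at 3 days (95% interval -0.31 to 0.04, adjusted p = 0.244) and 0.08 at 7 days (-0.10 to 0.26, adjusted p = 0.443). From 3 to 7 days the difference was 0.21 (0.03 to 0.39, adjusted p = 0.0650). It passed the threshold without either SB library (adjusted p = 0.0455 and 0.0450). The intervals bound any change of SPINT2 below 0.4 on the log2 scale. Of its 50-base windows, 41.2% also occur in transcripts of other genes, with 32.1% in the opposite-strand gene ENSG00000286037, and reads of the strands cannot be told apart.

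**Figure D2:**
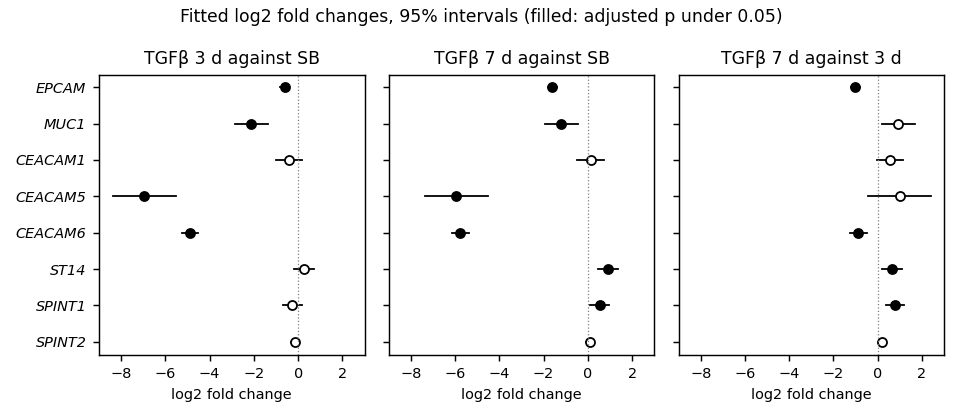
Fitted log2 fold changes (horizontal axis) of the 8 genes tested in 3 comparisons, with 95% intervals as bars and filled points for an adjusted p under 0.05 (moderated test of limma, 2 libraries per group). CEACAM5 and CEACAM6 lie beyond -4 against SB at both times, EPCAM is at -0.61 and then -1.62, and ST14 and SPINT1 are to the right of 0 at 7 days.

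By count, 4 of the 8 tested genes fell and 0 rose at TGFβ 3 days against SB (EPCAM, MUC1, CEACAM5 and CEACAM6). Among all genes tested 29.0% were called, 14.9% higher and 14.0% lower. At TGFβ 7 days against SB the same 4 genes fell and 2 rose (ST14 and SPINT1), where 54.5% of all genes were called, 27.7% higher and 26.9% lower. From 3 to 7 days 2 fell (EPCAM and CEACAM6) and 2 rose (ST14 and SPINT1), against 33.2% of all genes, 17.0% higher and 16.2% lower. The balance of all genes depended on the scaling: of those called from 3 to 7 days 51.3% were higher, but 41.1% after the correction for base composition and length described below, and of those called at 3 days 51.5% were higher, but 41.6% with equal library totals. The median log2 changes of the 8 were -0.52, -0.56 and 0.61, and those of all genes tested -0.02, -0.00081 and 0.02. With so few genes, and CEACAM5 passing the minimum only through SB, these counts and medians are a description. With no minimum, or in limma without the trend, only EPCAM and CEACAM6 of the 9 were called from 3 to 7 days, and MUC1 and SPINT1 lost their calls at 7 days against SB. The comparisons with SB share the same SB libraries.

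The order of the transcripts per length changed with TGFβ. Divided by the length of the canonical transcript, EPCAM stood first in SB at 6233 normalized counts per kb, followed by CEACAM6 at 3110 and SPINT2 at 2988, whose libraries overlapped. MUC1 (480) and SPINT1 (258) came next and overlapped as well, then ST14 (74.0) and CEACAM5 (44.7), again overlapping, CEACAM1 (12.0) and PRSS8 (2.99). At 3 days EPCAM (4074 per kb) and SPINT2 (2721) led, CEACAM6 had dropped to 103 per kb, below SPINT1 at 208, and MUC1 (95.5) and ST14 (86.7) overlapped. At 7 days SPINT2 led at 3155 per kb, above EPCAM at 2025 with no overlap of the libraries, followed by SPINT1 (360), MUC1 (182), ST14 (137) and CEACAM6 (55.9). CEACAM1 (13.2 per kb), PRSS8 (2.18) and CEACAM5 (0.286) closed the order. The level of SPINT1 was thus above that of ST14 in every group, and SPINT2 was above both.

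Among 27 other membrane and epithelial serine proteases, 26 were in the table and only 5 passed the minimum. At 7 days 2 were higher and 1 lower than in SB, with a median of -0.04, where 54.5% of all genes tested were called. TMPRSS2, a transmembrane protease of airway and prostate epithelium, was at 203 and 486 normalized counts in SB, 30 and 20 at 3 days and 54 and 48 at 7 days. Its log2 change was -3.63 at 3 days and -2.60 at 7 days (adjusted p = 1.22e-05 and 7.43e-05), with -4.25 and -3.23 without SB library 1 and -3.00 and -1.97 without SB library 2. KLK6, a secreted trypsin-like kallikrein, was at 0 in both SB libraries, 3 and 5 at 3 days, and 94 and 111 at 7 days, and was thus at least 34.2-fold higher at 7 days than in SB when SB is set to a floor of 3 normalized counts per library. PRSS22, or tryptase epsilon, was 1.31 higher at 7 days (adjusted p = 0.00596) with values of 12 to 59. TMPRSS5 and TMPRSS9 did not pass the test. At 3 days 1 of the 5 was called higher (KLK6) and 1 lower (TMPRSS2), with a median of 0.02, against 29.0% of all genes called. From 3 to 7 days 3 were higher (KLK6, PRSS22 and TMPRSS2) and 0 lower, with a median of 1.02, against 33.2% of all genes called. KLK6 passed the minimum only through its 7-day level, so its calls are a description, and its 3-day mean of 4 was close to the floor. The count called at 3 days was 1 with a pseudocount of 5, and also 1 with a minimum mean of 50 or in a fit of the 4 libraries compared.

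The list of substrates and receptors that these proteases are known to cleave or serve had 9 of 13 genes over the minimum. At 7 days 4 rose (PLAU, PDGFC, PLAUR and CDCP1) and 3 fell (MST1R, SCNN1A and MET), with a median of 0.26, against 54.5% of all genes called. PLAU, the urokinase-type plasminogen activator, rose most, by 1.53 on the log2 scale (adjusted p = 7.42e-08), to 63475 and 62583 normalized counts. MST1R, the receptor of macrophage-stimulating protein, fell most, with a log2 change of -0.998 (adjusted p = 0.000166). SCNN1A, a subunit of the epithelial sodium channel, which prostasin is known to activate, had log2 changes of -1.20 at 3 days and -0.71 at 7 days (adjusted p = 0.000703 and 0.00881). Its SB libraries were at 1092 and 1902 normalized counts, and without SB library 2 the values were -0.80 (adjusted p = 0.00147) and -0.31 (adjusted p = 0.0534), without SB library 1 -1.60 and -1.11. SCNN1B, another subunit and under the minimum, was at 7 and 28 normalized counts in SB and listed at 0 in all 4 TGFβ libraries. At 3 days 5 rose and 3 fell (median 0.24), against 29.0% of all genes called, with F2RL1, the protease-activated receptor PAR2, 0.42 higher (adjusted p = 0.00686). That count of 8 was 6 without SB library 2, 5 without TGFβ 3-day library 1 and 4 without the trend. From 3 to 7 days PLAU rose and MET fell, and the median was -0.07, with 0 to 4 called over the alternatives. The share of all genes called from 3 to 7 days was 33.2%.

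All 4 serpins over the minimum, of 5 listed as inhibitors of trypsin-like proteases, rose in each of the 3 comparisons, with medians of 0.91, 1.69 and 0.78. The shares of all genes called higher in the same comparisons were 14.9%, 27.7% and 17.0%. SERPINA5, the protein C inhibitor, was at 124 and 205 normalized counts in SB, 534 and 566 at 3 days, and 6098 and 5906 at 7 days. Its log2 change was 1.78 at 3 days and 5.23 at 7 days (adjusted p = 1.91e-05 and 1.05e-09). SERPINB6, an intracellular serpin, moved least at 7 days, by 0.73 (adjusted p = 2.67e-05), and lost its call at 3 days without SB library 1 (0.28, adjusted p = 0.0547). SERPINE2 (protease nexin-1) and SERPINA1 (α1-antitrypsin) were 1.95 and 1.43 higher at 7 days on the log2 scale (adjusted p = 4.82e-08 and 3.86e-08).

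Of the partners of EPCAM, the tetraspanin CD9 fell with log2 changes of -0.57 at 3 days and -1.04 at 7 days (adjusted p = 0.000357 and 1.29e-06). CLDN7, the claudin that binds EPCAM, was at 312 and 511 normalized counts in SB, 232 and 266 at 3 days, and 457 and 391 at 7 days. Its log2 change was -0.68 at 3 days, and it regained 0.76 from 3 to 7 days (adjusted p = 0.0267 and 0.0146), ending within the range of the SB libraries. The value at 3 days was -1.04 without SB library 1 and -0.33, with its call lost, without SB library 2 (adjusted p = 0.188). Among the proteases known to cleave EPCAM, the γ-secretase subunit APH1B rose most at 7 days, by 1.81 (adjusted p = 2.89e-07), and ADAM10 and ADAM17 rose by 0.48 and 0.52 (adjusted p = 0.000821 and 0.00143), while BACE2 fell by 0.44 on the log2 scale (adjusted p = 0.00565). Of the 12 partner and protease genes reported over the minimum, 3 rose and 3 fell at 3 days, 6 rose and 2 fell at 7 days, and 5 rose and 2 fell from 3 to 7 days, with medians of 0.10, 0.28 and 0.22. The 7 calls from 3 to 7 days were 4 with no minimum, without the trend, without TGFβ 3-day library 1 and without either 7-day library. For all genes tested, the shares called in the 3 comparisons were 29.0%, 54.5% and 33.2%.

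Other mucins and CEACAM genes were few and low. Of 10 other transmembrane mucins, 3 passed the minimum. MUC4 fell at 3 days (log2 change -1.38, adjusted p = 0.0212), with SB libraries at 78 and 236 normalized counts, and its value of -0.72 at 7 days missed the threshold (adjusted p = 0.142). Without SB library 2 the values were -0.59 (adjusted p = 0.135) and 0.07, and without SB library 1 -2.17 and -1.51 (adjusted p = 0.000253 and 0.00113). MUC13, at 5 to 22 normalized counts, was 1.68 higher at 3 days and 1.20 higher at 7 days (adjusted p = 0.0155 and 0.0400), and the call at 7 days was lost without either SB library (adjusted p = 0.0786 and 0.0700). MUC13, at 5 in both SB libraries, passed the minimum only through the TGFβ groups, so its calls are a description. MUC12 did not pass, so that 1 mucin rose and 1 fell at 3 days, 1 rose and 0 fell at 7 days, and 0 were called from 3 to 7 days, with medians of -0.21, -0.64 and -0.43. In the same order, 29.0%, 54.5% and 33.2% of all genes tested were called. Of 9 other CEACAM genes only CEACAM19 passed the minimum, with changes of -0.53 (adjusted p = 0.0860), -0.03 (adjusted p = 0.902) and 0.49 (adjusted p = 0.0969).

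**Figure D3:**
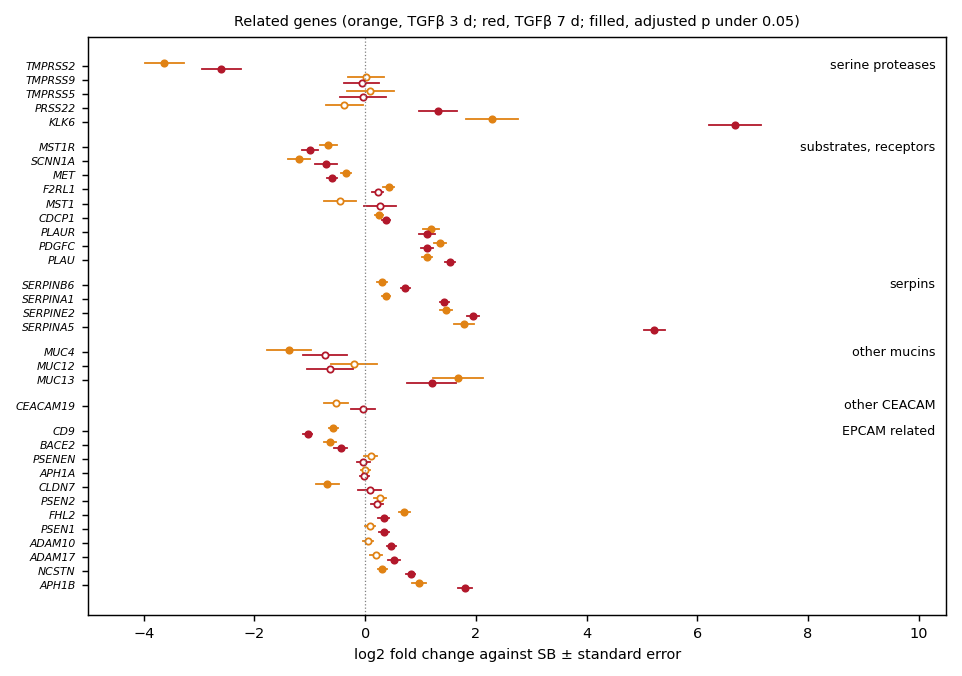
Fitted log2 fold changes against SB (horizontal axis) with their standard errors for the related genes over the minimum, grouped by list, with orange for TGFβ 3 days, red for TGFβ 7 days and filled points for an adjusted p under 0.05. All 4 serpins lie to the right of 0 at both times, TMPRSS2 is the furthest to the left, and CD9 is at -1.04 at 7 days.

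Epithelial markers moved in different directions, while the 4 lung lineage markers tested were all lower than in SB at both times. Among all genes tested, 14.0% were called lower at 3 days and 26.9% at 7 days. NAPSA (99 and 234 normalized counts in SB) and SCGB3A2 (414 and 642) passed the minimum only through SB. Their calls are fixed in part by that minimum and are a description only. CDH1, which encodes E-cadherin, was at 371 and 635 normalized counts in SB, 28 and 24 at 3 days, and 10 and 9 at 7 days, a change of -4.18 and then -5.54 on the log2 scale (adjusted p = 7.11e-07 and 2.78e-08). The keratin KRT7 rose by 1.50 and 1.06 (adjusted p = 1.85e-06 and 1.57e-05), and KRT18 had log2 changes of -0.29 and -0.56 (adjusted p = 0.0215 and 0.000144), the first of which was lost without SB library 2 (adjusted p = 0.0720). KRT8 and KRT19 did not pass the test against SB. The 5 lung lineage markers summed to 4402 and 12057 normalized counts in the SB libraries and to 759 to 884 in the TGFβ libraries. SFTPB alone held 1104 and 8273 of the SB sums, whereas NKX2-1 was at 2784 and 2908. NKX2-1 changed by -1.96 and -1.73 on the log2 scale (adjusted p = 4.48e-08 and 5.07e-08). SB library 2 was thus the higher one for CDH1, for SFTPB, NAPSA and SCGB3A2, and for MUC1, CEACAM5, CEACAM6, ST14 and SPINT1. NKX2-1 and SPINT2 differed little between the SB libraries, and EPCAM was lower in library 2 (9106 against 10180). The part of these differences in the results above was not tested.

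The genes whose 6 log2 values, centered on their mean, lay nearest to those of EPCAM among 11388 genes averaging at least 100 normalized counts were ZNF114 and ABCG2, both at a Euclidean distance of 0.15. ABCG2, a drug efflux transporter, was at 897 and 851 normalized counts in SB, 617 and 586 at 3 days, and 255 and 300 at 7 days. Nearest to ST14 were ATP2A3 and ABCA2, at distances of 0.17 and 0.20. ATP2A3, a calcium pump of the endoplasmic reticulum, was at 131 and 202 in SB, 160 and 226 at 3 days, and 359 and 310 at 7 days, and so repeated the order of the single libraries of ST14 within each group. These likenesses are over 6 libraries that share their preparation. They use values without the correction for base composition and length described below. After that correction the library differences of ST14 were 0.08 at 3 days and 0.02 at 7 days on the log2 scale. The part of base composition in these likenesses was not tested.

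The difference between the libraries of a group varied with base composition. In the tercile of genes richest in GC, the median difference of library 2 from library 1 was 0.07 on the log2 scale in SB, 0.22 at TGFβ 3 days and -0.18 at 7 days, and in the poorest tercile it was -0.05, -0.11 and 0.10. The transcript of ST14 has 62.1% GC, more than 91.1% of genes, that of SPINT1 60.2% and that of EPCAM 44.3%. For ST14 the library differences of 0.64, 0.38 and -0.22 became 0.45, 0.08 and 0.02 after each library had been corrected for the GC content and length of the transcripts. For MUC1 in SB the difference was 1.52 before and 1.45 after. In that fit ST14 was 0.76 higher at 7 days than in SB (adjusted p = 0.00226) and 0.47 higher than at 3 days (adjusted p = 0.0301). SPINT1 was 0.64 higher at 7 than at 3 days (adjusted p = 0.0169) and lost its call against SB (0.42, adjusted p = 0.0622). SPINT2 passed the threshold at 7 days, with 0.14 against SB (adjusted p = 0.0320) and 0.18 against 3 days (adjusted p = 0.0175).

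**Figure D4:**
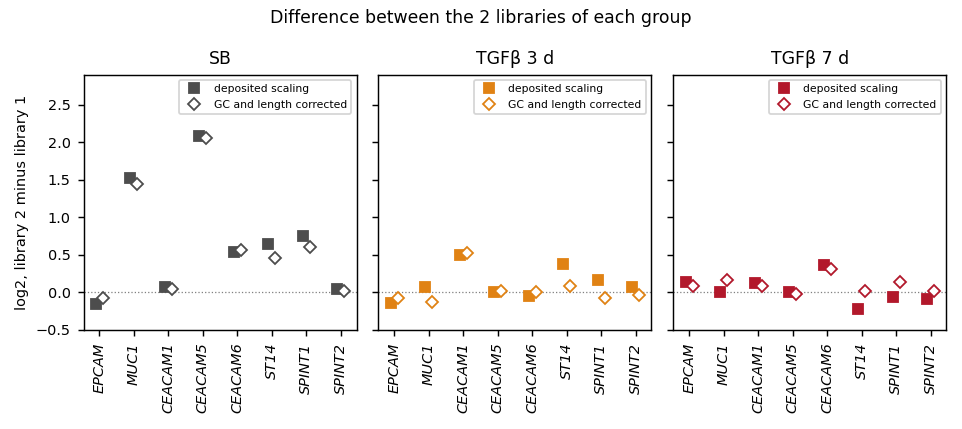
Difference of library 2 from library 1 on the log2 scale (vertical axis) for the 8 genes tested in each group, as deposited (filled squares) and after the correction for base composition and length (open diamonds). MUC1 (1.52) and CEACAM5 (2.09) stand apart in SB with or without the correction, while ST14 moves to 0.08 and 0.02 in the TGFβ groups.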

How the data were processed

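RNA was poly(A)-selected and sequenced as read pairs of 50 bases with a kit that does not mark strand. The cells received 2.5 µM SB505124 or 100 pM TGFβ. The authors mapped the pairs to hg19 with STAR, counted uniquely mapped reads with HTSeq 0.6.1p1 and normalized them by library size with DESeq2 (version 3.4 in the submitters' processing notes). The deposited values, recorded here under the unit score, are such normalized counts rounded to whole numbers, and the reads of each gene could not be recovered. The annotation release is not given in the sources used here.

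Values were transformed as log2(value + 1). Genes with a mean of at least 10 over the 6 libraries entered a single limma fit (version 3.58.1, R 4.3.3) of the 3 groups without covariates, which left 3 residual degrees of freedom. The moderated, two-sided test used a prior trended on expression, with Benjamini-Hochberg adjustment over the 14395 genes and a threshold of 0.05. These steps were tested on simulated data with the same spread setting for every library and no trend on base composition. Such data cannot show how the test behaves where the SB libraries stand further apart than the others. The 9 genes and the lists were chosen with earlier results of these data known. Named were the 9 genes, the genes of each list with the largest and smallest change at 7 days and those needed for counts of 5 or fewer, the 2 genes nearest to EPCAM and to ST14, and SMAD7. Of the genes listed, 2 are not reported here. Genes named beyond these were chosen after their values were seen: SERPINE2, SERPINA1, ADAM10, ADAM17, BACE2, CLDN7, SCNN1A, SCNN1B, F2RL1 and the markers. Positions and lengths came from the GENCODE annotation on GRCh37. Alternatives were other pseudocounts, minimums and scalings, limma without the trend, 4 libraries only, the replicate number as a block and each library left out. A loess correction for base composition and length (GC content, log length; span 0.5; 12837 of 14395 genes) was chosen after seeing the data.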

Additional observations from a re-analysis of the deposited data

Results flagged for a closer look

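The difference between the changes at TGFβ 7 days and at 3 days, both against the same SB libraries, equals the difference between the TGFβ groups. It was tested as such with limma, and without SB at 7 days it holds time in culture as well as TGFβ. It passed the threshold for 4 of the 8 genes tested, against 33.2% of all genes. The change at 7 days differed from that at 3 days by -0.88 on the log2 scale for CEACAM6 (adjusted p = 0.00287) and by -1.01 for EPCAM (adjusted p = 2.82e-05). The difference was 0.79 for SPINT1 (adjusted p = 0.00866) and 0.67 for ST14 (adjusted p = 0.0290). The calls of SPINT1 and ST14 were lost with no minimum (adjusted p = 0.0875 and 0.138) and without the trend (0.0723 and 0.107).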

How the results depend on the processing

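The falls of EPCAM, MUC1 at 3 days and CEACAM6 against SB, the further falls of EPCAM and CEACAM6 from 3 to 7 days and the rise of ST14 at 7 days against SB passed the test under all 17 alternatives. With no minimum, and also without the trend, the count of the 9 genes called from 3 to 7 days was 2, and MUC1 at 7 days (adjusted p = 0.108 and 0.0821), SPINT1 at 7 days (0.158 and 0.131), SPINT1 from 3 to 7 days (0.0875 and 0.0723) and ST14 from 3 to 7 days (0.138 and 0.107) missed the threshold. SPINT1 at 7 days also missed it with equal library totals (adjusted p = 0.0769). MUC1 from 3 to 7 days passed with median-of-ratios factors (0.0371) and the upper quartile (0.0395), but missed the threshold in 7 of the 11 settings other than a left-out library. All genes called from 3 to 7 days numbered 3042 with no minimum, 3122 without the trend and 5968 (2454 higher, 3514 lower) with the correction for base composition and length. With each library left out in turn they numbered 2294 to 5570, and 2608 to 3894 at 3 days against SB. The cause of these shifts was not tested. At 3 days against SB, leaving out each library in turn gave -0.069 to 0.57 for ST14, with the sign turned without SB library 1, and -0.64 to 0.11 for SPINT1, with the sign turned without SB library 2. Settings other than a left-out library moved the count of other mucins called between 0 and 2 at 3 days and between 0 and 3 at 7 days. With equal library totals 1819 genes were higher and 2552 lower at 3 days.

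The replicate number as a block gave MUC1 an adjusted p of 0.00255 from 3 to 7 days and changed no other call among the 8 genes. Deviations of same-numbered libraries correlated at 0.14, -0.10 and -0.29 over genes between SB and 3 days, SB and 7 days, and 3 and 7 days. No pairing by number showed in these values. They were not corrected for base composition, whose trend ran in opposite directions at 3 and at 7 days, so they cannot decide whether the libraries were paired.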
